A study of Homo sapiens with 6 samples.

Results

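The proteasome is the protease complex that degrades ubiquitin-tagged proteins in the cytosol and nucleus, and the genes described here are those of its subunits, assembly factors, activators and inhibitor. They were chosen by name alone, as protein-coding genes with a symbol beginning PSMA to PSMG followed by a number, together with POMP and ADRM1. The rule found 51 genes of the 35359 genes to which the transcripts of the 6 libraries could be joined. One of them, PSMC3IP, matched by its symbol although its product is a partner of a recombination protein with no known part in the proteasome. PSME3IP1 is listed under an older symbol in GENCODE release 29, so the rule left it out, and its log2 fold change was -0.06 against 0.02 for PSMC3IP, neither of them called.

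The libraries were made from polyadenylated RNA of EoL-1, a human leukaemia line that serves as a stand-in for eosinophils. In 3 of them the genotype was given as wild type, and in the other 3 CRISPR/Cas9 had been aimed at ATF3, which encodes a bZIP transcription factor that cells under stress produce. Both groups were cultured in RPMI medium with fetal bovine serum and antibiotics, and no further treatment was named. The sample labels call the edited cells a knockout while the text on the design calls them a knockdown. Whether they were a clone or a pool, where the edit lies and whether the replicates were separate cultures is not stated in the sources used here. All p-values therefore reflect no more than the spread among these 6 libraries, which may be technical.

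A proteasome consists of a barrel-shaped core particle and a regulatory particle that caps it. The core is built of outer rings of alpha subunits, encoded by PSMA genes, and inner rings of beta subunits, encoded by PSMB genes, of which PSMB5, PSMB6 and PSMB7 carry the constitutive proteolytic sites. In cells exposed to interferon gamma, and in many leukocytes without it, PSMB8, PSMB9 and PSMB10 take their places and form the immunoproteasome, which favours peptides suited to presentation on MHC class I. The regulatory particle has a base of ATPases that unfold substrates (PSMC genes), scaffold and ubiquitin-binding subunits, and a lid whose subunit PSMD14 removes ubiquitin chains. Assembly of the core is aided by the chaperones PSMG1 to PSMG4 and by POMP. The transcription factor NFE2L1 raises transcription of these genes together when proteolysis fails, through promoter elements with the letters TGACNNNGC that it binds with a small MAF protein.

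Promoters of the members were searched because the genes are known to be transcribed together through shared elements. RefSeq promoters of GRCh38.p14, running from 250 bases before to 50 after each start, were matched by symbol for 45 of the 51 members. On either strand, TGACNNNGC was found in 16 of the 45 (35.6%), against 16.1% of 27305 genes with a promoter in the same table. The letters GAAA, 2 bases of any kind and GAAA again, the core of the interferon-stimulated response element, were found in 7 (15.6% against 4.38% of all genes). CCAAT, the motif of NF-Y, was found in 22 (48.9% against 39.7%), TGATGNAA, the core of the element read by C/EBP and ATF dimers, in 1 (2.22% against 4.46%), and TGACGTCA, the cAMP response element that ATF proteins can bind, in 0 (2.25% of all genes). That TGACGTCA was not in these windows is a statement about the letters alone. Examples follow, with the match in capitals, to show how the element sits in the promoter of a core subunit (PSMB3), of a lid subunit (PSMD12) and of the member with the largest fall in the knockout libraries (PSMG1). They also show that PSMB10, PSME2 and PSMG4 carry the same GAAAGCGAAA letters close to their starts. PSMB3 lies at chr17:38752612-38752670 on the plus strand, PSMD12 at chr17:67366709-67366767 on the minus strand, PSMG1 at chr21:39183616-39183644 on the minus strand, PSMB10 at chr16:67936852-67936881 on the minus strand, PSME2 at chr14:24146619-24146648 on the minus strand and PSMG4 at chr6:3258904-3258933 on the plus strand. The last 4 are shorter because a longer stretch would meet an exon of some annotated transcript.
PSMB3: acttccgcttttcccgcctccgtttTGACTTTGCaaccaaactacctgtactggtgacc
PSMD12: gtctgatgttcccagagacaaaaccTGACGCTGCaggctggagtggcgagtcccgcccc
PSMG1: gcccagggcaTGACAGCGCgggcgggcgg
PSMB10: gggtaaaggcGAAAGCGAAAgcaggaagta
PSME2: cctggggagtGAAAGCGAAAgcccgggcga
PSMG4: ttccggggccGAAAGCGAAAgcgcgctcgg

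The libraries held 26766103 to 30117281 estimated reads. ATF3 (ENSG00000162772.16, chromosome 1, 212565334 to 212620777, plus strand of GRCh38) stood at 22.2, 15.8 and 22.4 CPM (reads scaled to library size) in wild-type replicates 1, 2 and 3 and at 5.45, 8.09 and 4.39 in knockout replicates 1, 2 and 3. Its mRNA was thus lower in every knockout library but not lost (log2 fold change -1.75, SE 0.25, edgeR adjusted p = 0.00927). An exact two-sided permutation test gave p = 0.1, the smallest value that 3 against 3 allows, and without wild-type replicate 1 the edgeR adjusted p was 0.0511. On the first principal component of all genes tested (44.95% of the variance) the knockout libraries lay at 20.91 to 34.82, wild-type replicates 1 and 3 at -36.98 and -36.26, and wild-type replicate 2 between them at -11.9. Of 11 eosinophil marker genes, 7 stayed under 1 CPM in every library, and PRG3, CLC, IL5RA and GATA1 had no reads in any. The summed level of the list was 35.8 to 50.5 CPM in wild type and 112.9 to 180.4 in knockout, from RNASE2 and RNASE3. Monocyte markers summed to 124.9 to 565.8 CPM against 576.4 to 1244.7 (6 genes, 2 of them higher, with FCGR3A at 0 and CD14 under 1 CPM). Neutrophil markers summed to 293.2 to 485.5 CPM against 916.4 to 1313.9 (6 genes, 2 higher, with ELANE under 1 CPM). Lymphocyte markers gave 109.8 to 131.7 CPM against 128.2 to 168.1 with CD3E, CD3D and MS4A1 at 0. Erythroid and megakaryocyte markers (0.385 to 0.648 CPM against 0.898 to 1.94) and those of endothelium and stroma (0.171 to 0.496 against 0.149 to 0.212) were nearly absent. The sums of these myeloid lists were higher in every knockout library, but not every gene followed. VCAN, at 36.2, 238.2 and 25.9 CPM in wild type and 324.9, 419.3 and 84.6 in knockout, overlapped between the groups, as did CEBPE. The part of the myeloid genes in the results below was not tested.

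Reads of PSMB3, PSMB8 and PSMB9 lay mostly on transcripts outside the primary assembly, and a join to primary gene models alone would lose them. PSMB3, a structural beta subunit (ENSG00000277791.4, chromosome 17, 38752736 to 38764231, plus strand), had 0 reads on its primary transcript in every library. Its reads, 1972, 2249 and 2059 in the wild-type and 2066, 2203 and 2453 in the knockout libraries, were on transcripts of alternate sequences that carry its symbol, nearly all on ENST00000619951.2, which at 773 bases is as long as the primary transcript ENST00000619426.4. PSMB8 (ENSG00000204264.9, chromosome 6, 32840717 to 32844703, minus strand) and PSMB9 (ENSG00000240065.7, chromosome 6, 32844136 to 32859585, plus strand) lie in the MHC region, for which several alternate haplotypes exist. For PSMB8, 90.97% of the reads were on such copies, and for PSMB9 95.89%. Reads on PSMB8 copies numbered 2366.8, 2176.3 and 2343.3 in the wild-type libraries and 1874.2, 1874.4 and 2523.3 in the knockout ones, while its primary transcripts held 165.0 to 257.8. Those on PSMB9 copies numbered 386.6, 299.5 and 317.2 against 245.9, 218.8 and 361.3, while its primary transcript held 5.5 to 23.7. The protein-coding primary transcript of PSMB8 with 1124 bases, ENST00000374882.7, is not among the transcripts of the tables, whereas the copy ENST00000421445.6 of the same length is. All levels below add both kinds of transcript, and no other member had reads on copies.

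**Figure D1:**
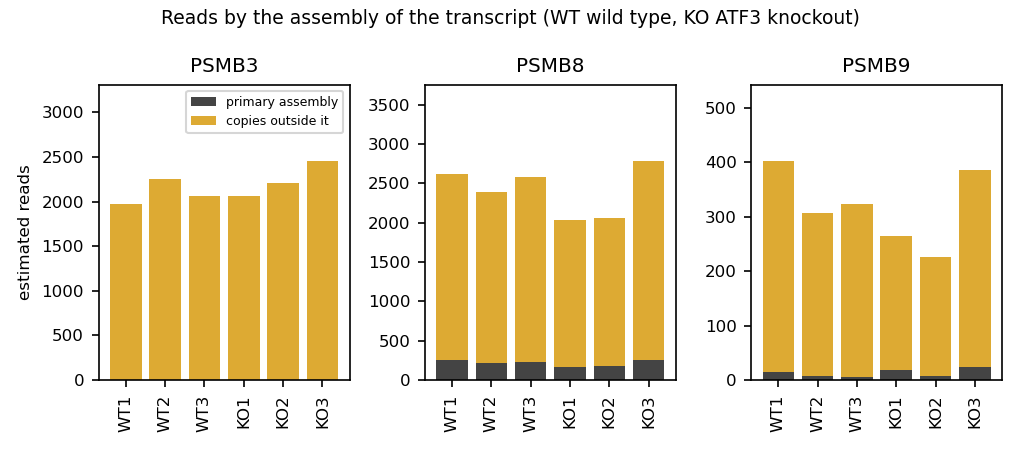
Estimated reads of PSMB3, PSMB8 and PSMB9 in each library (WT, wild type; KO, ATF3 knockout), split by whether the transcript belongs to the primary assembly (dark grey) or to a copy outside it (yellow). The copies hold all reads of PSMB3, 90.97% of those of PSMB8 and 95.89% of those of PSMB9.

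Among the proteasome genes 8 passed the test, with small differences in both directions. Reads were found for 49 members, and all 49 passed the filter on low counts, at mean levels of 11.1 to 203.7 CPM. PSMA8, the testis form of PSMA7, and PSMB11, the beta subunit of thymic cortex, had 0 reads in every library and were not tested. Of the 49, 2 were higher and 6 lower in the knockout libraries at an edgeR adjusted p under 0.05, which is 16.3% against 21.7% of the 13274 genes tested (11.7% higher and 9.95% lower). PSMD1 and PSMD11 were the higher genes, and PSMA6, PSMB7, PSMC3, PSMD14, PSMF1 and PSMG1 the lower ones. In bulk libraries less RNA per cell and fewer cells of a type with that RNA cannot be told apart. In 24 members (49.0%) the groups did not overlap, against 43.8% of all genes. Of these, 7 were higher (14.3%, against 22.4% of all genes) and 17 lower (34.7%, against 21.5%). No test was made of these shares over the list.

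Differences between the groups were small in size. Fold changes of the 49 members ran from -0.50 (PSMG1) to 0.28 (PSMD2) on the log2 scale, with a median of -0.07 against 0.005 over all genes tested, and 30 were negative and 19 positive. The median size without regard to sign was 0.12, against 0.24 for all genes and 0.2 for genes in the same range of CPM. For 46 members (93.9%) the whole 95% confidence interval lay within a 1.5-fold change in either direction, while 51.0% of all genes tested had such an interval. The share over all genes was not limited to the same range of CPM, and the width of an interval also depends on read counts. The exceptions among the members were PSMG1 (-0.71 to -0.29), PSMG4 (-0.76 to 0.02) and PSMB9 (-0.70 to 0.24). TPM is a scale that allows for transcript length. Summed over all members, it came to 5177.1, 5319.8 and 5236.6 in wild type and 5164.5, 5230.8 and 5177.7 in knockout. On this scale the groups overlapped. Unlike CPM, TPM were not scaled by the TMM factors. Those factors were 0.9756 to 0.9899 in wild type and 1.0073 to 1.0337 in knockout. Sums that differ this little can overlap or lie apart depending on that scaling. The 14 constitutive core subunits summed to 2559.7 ± 73.8 TPM (SD, n = 3) in wild type and 2487.3 ± 21.7 in knockout, and the 18 regulatory particle subunits to 1446.2 ± 12.6 and 1483.8 ± 36.2. In unscaled TPM the core sum overlapped between the groups. The regulatory particle sum was higher in every knockout library, at 1458.7 to 1525.3 against 1431.6 to 1453.6. Ratios of the means, knockout over wild type, were 0.972 for the core and 1.03 for the regulatory particle. Both are within the gap between the TMM factors, so neither the overlap nor the separation is independent of the scaling. Its parts did not move together. The scaffold and receptor genes summed to 333.4 to 358.6 TPM in wild type and 378.3 to 416.0 in knockout. Within them PSMD2 alone had means of 118.8 and 151.4. The ATPases were lower in every knockout library (461.3 to 473.8 against 480.7 to 494.9), and in unscaled TPM the lid overlapped.

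**Figure D2:**
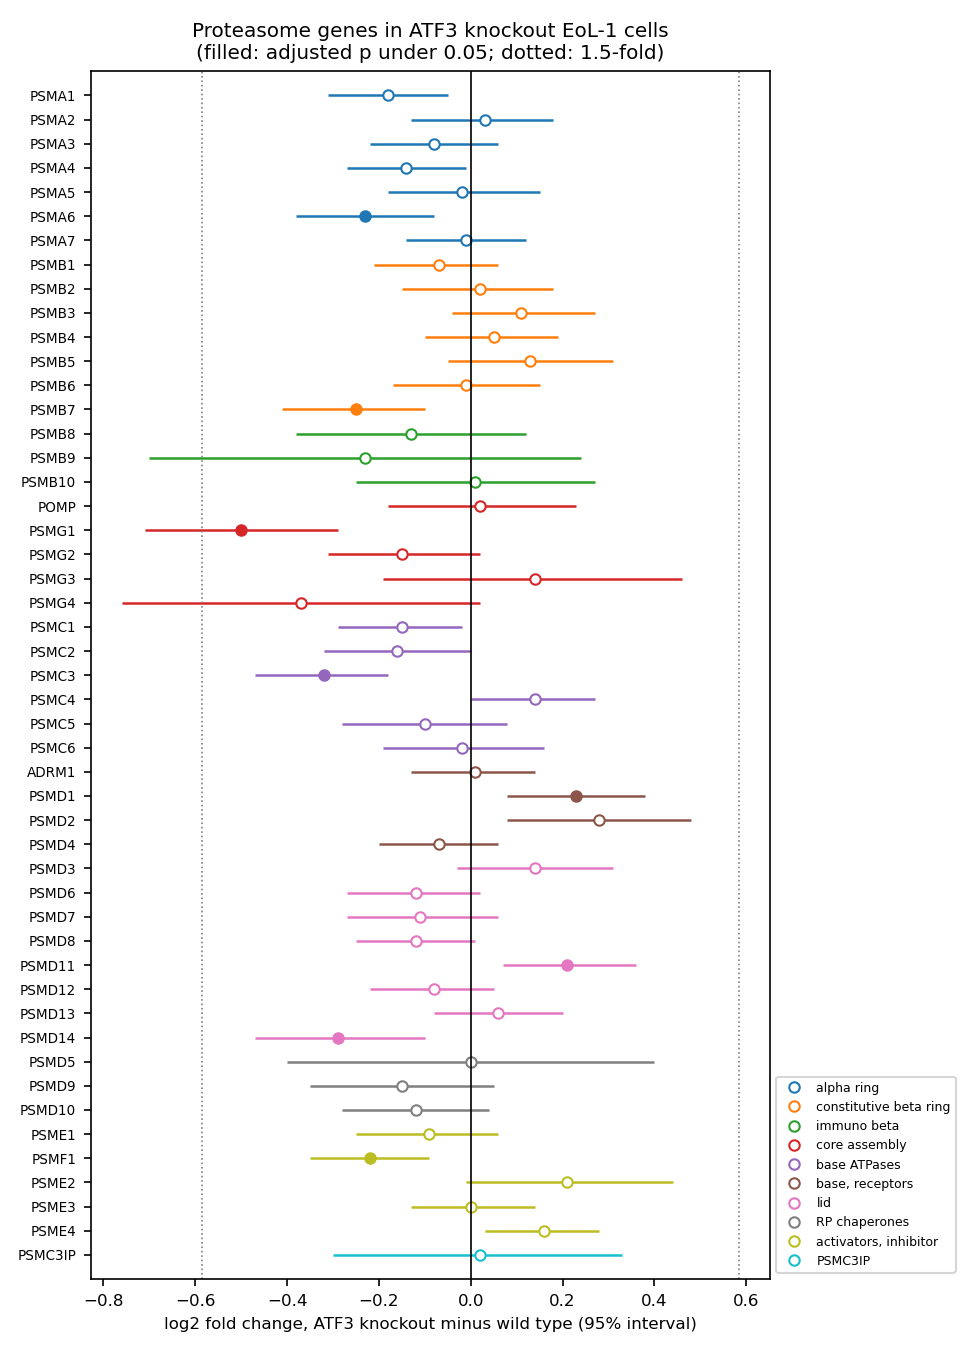
Log2 fold change (ATF3 knockout minus wild type) of the 49 members tested, with 95% confidence intervals from edgeR, coloured by role; filled points passed an adjusted p of 0.05 and dotted lines mark a 1.5-fold change. The points run from -0.50 (PSMG1) to 0.28 (PSMD2), and 46 of the 49 intervals stay between the dotted lines.

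The alpha ring, which forms the gated entrance of the core, held 7 tested members, of which 1 was lower, none was higher and the median log2 fold change was -0.08. PSMA6 (ENSG00000100902.10, chromosome 14, 35278633 to 35317493, plus strand) was both the called member and the one with the highest level per length. It stood at 201.7, 219.6 and 196.6 CPM in wild type and at 177.8, 170.9 and 178.1 in knockout. All knockout libraries were lower than all wild-type libraries (log2 fold change -0.23, SE 0.06, edgeR adjusted p = 0.0433). The call was lost without wild-type replicate 1, 2 or 3 (edgeR adjusted p = 0.128, 0.0884 and 0.0935) and without knockout replicate 1 or 2 (0.096 and 0.0977). It was also lost with library totals alone (-0.18, edgeR adjusted p = 0.08) and without the filter (0.0639). An offset for the mean effective length of the gene in each library ended the call too (edgeR adjusted p = 0.0709). So did adding transcripts without a gene by length (0.0557) and removing a trend on GC content (-0.15, 0.189). In TPM the ring ran from 94.4 (PSMA2) to 447.6 (PSMA6), but 58.5% of the TPM of PSMA6 and 78.5% of that of PSMA5 came from transcripts under 500 bases, whose short effective lengths raise TPM. PSMA6 also shares 919 exon bases with the read-through gene ENSG00000258790 on the same strand. PSMA1, PSMA3 and PSMA4 were each lower in every knockout library without passing the test, with log2 fold changes of -0.18, -0.08 and -0.14 (edgeR adjusted p = 0.0604, 0.363 and 0.12). PSMA2, PSMA5 and PSMA7 overlapped, at 0.03, -0.02 and -0.01.

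Of the 7 constitutive beta subunits, 1 was lower, none was higher and the median was 0.02. PSMB7, which carries the trypsin-like site (ENSG00000136930.12, chromosome 9, 124353466 to 124415444, minus strand), had 141.4, 136.1 and 136.9 CPM in wild type and 112.7, 110.7 and 124.0 in knockout. No values overlapped, and knockout replicate 3 lay nearest to wild type (log2 fold change -0.25, SE 0.06, edgeR adjusted p = 0.0341). The call was lost without wild-type replicate 1, 2 or 3 (edgeR adjusted p = 0.138, 0.0589 and 0.112) and without knockout replicate 1 or 2 (0.0976 and 0.0821). Transcripts under 500 bases held 46.1% of the TPM of PSMB7, led by the processed transcript PSMB7-203 of 462 bases. With protein-coding transcripts alone its log2 fold change was -0.23 and its edgeR adjusted p 0.0537, and the call was likewise lost with library totals alone (0.0549) and the effective length offset (0.058). The other catalytic subunits gave no call. PSMB5, with the chymotrypsin-like site, stood at 59.8, 64.2 and 58.9 CPM against 67.1, 62.0 and 71.2, and PSMB6, with the caspase-like site, at 48.5, 53.3 and 48.6 against 48.2, 49.6 and 51.1. Both overlapped between the groups (log2 fold changes 0.13 and -0.01, edgeR adjusted p = 0.246 and 0.903). PSMB1, the member of the ring with the highest TPM (251.4), had 192.4, 205.6 and 191.2 CPM in wild type and 186.0, 184.1 and 189.9 in knockout, lower throughout by a narrow margin (-0.07, edgeR adjusted p = 0.391). PSMB3, recovered from the copies, was slightly higher in every knockout library, at 69.0, 76.7 and 72.9 CPM against 77.2, 77.8 and 81.6, but did not pass the test (log2 fold change 0.11, edgeR adjusted p = 0.247).

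Immunoproteasome subunits were expressed in both groups and none of the 3 tested was called. PSMB8, which replaces PSMB5, stood at 91.8, 81.6 and 91.2 CPM in wild type and 76.1, 72.6 and 92.5 in knockout. Knockout replicate 3 had the highest value of all, while the other two knockout libraries were below every wild-type library (log2 fold change -0.13, SE 0.10, edgeR adjusted p = 0.398). PSMB9, which replaces PSMB6 and was the scarcest, had 14.1, 10.5 and 11.4 CPM against 9.9, 7.98 and 12.8, again with knockout replicate 3 among the wild-type values (-0.23, SE 0.20, edgeR adjusted p = 0.442). With primary transcripts alone, PSMB9 rested on so few reads that its log2 fold change turned to 0.79 (edgeR adjusted p = 0.33). PSMB10, which replaces PSMB7, had 51.9, 48.8 and 56.4 CPM against 55.2, 44.8 and 58.0, a difference of 0.01 with a 95% interval from -0.25 to 0.27. That interval limits a change of PSMB10 to less than 1.5-fold but does not show that it was absent. PSMB10 shares 644 exon bases with a gene on its own strand, ENSG00000261884, which held 1017.0 reads over all libraries against 8996.9 for PSMB10.

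Levels per length put the inducible and constitutive catalytic subunits side by side. The TPM ratio of PSMB8 to PSMB5 was 1.44, 1.23 and 1.47 in wild type and 1.05, 1.07 and 1.24 in knockout, above 1 in all 6 libraries. With transcripts without a gene added by length, the ratio fell below 1 in knockout replicates 1 and 2 (0.917 and 0.931), so which of the pair was the more abundant there depends on that choice. Wild-type replicate 2 and knockout replicate 3 almost met, and the groups overlapped. PSMB9 was scarcer than PSMB6 in all 6, with ratios of 0.315, 0.215 and 0.259 against 0.219, 0.173 and 0.267. The ratio of PSMB10 to PSMB7 was 0.246, 0.247 and 0.279 in wild type and 0.338, 0.281 and 0.331 in knockout, apart by a narrow gap. It overlapped when only protein-coding transcripts were counted (0.444, 0.414 and 0.480 against 0.575, 0.476 and 0.532). Had only primary transcripts been used, the mean ratio of PSMB8 to PSMB5 in wild type would have been 0.0554 in place of 1.38, and that of PSMB9 to PSMB6 0.00514 in place of 0.263. Summed, the 3 inducible subunits came to 166.7 ± 10.7 TPM (SD, n = 3) in wild type and 163.2 ± 18.0 in knockout, and the 3 constitutive ones to 382.5 ± 7.45 and 358.4 ± 7.83. The inducible sum overlapped between groups, whereas the constitutive sum was lower in every knockout library, with PSMB7 as its largest part. Of its genes only PSMB7 was lower throughout (242.1 to 256.6 TPM in wild type against 206.2 to 220.2). Transcripts under 500 bases held 46.1% of the TPM of PSMB7. In TPM, PSMB5 was higher in every knockout library (58.1 to 63.2 against 69.2 to 72.9) and PSMB6 overlapped.

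**Figure D3:**
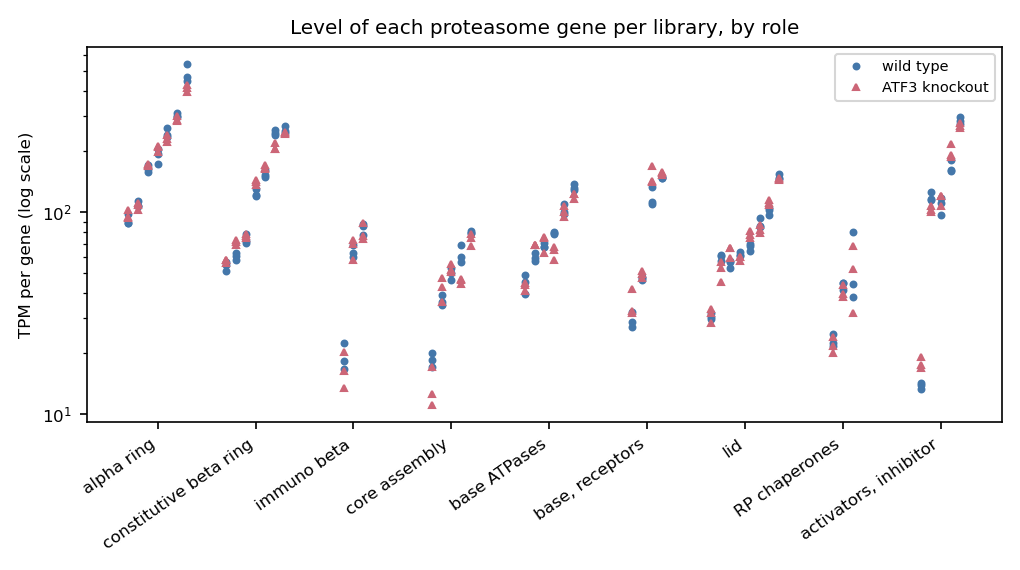
TPM of every tested member other than PSMC3IP in each library on a log scale, grouped by role and ordered by mean level within a role, with 1 column of 6 points per gene (circles, wild type; triangles, ATF3 knockout). Columns run from 15.9 TPM (PSME4) to 447.6 TPM (PSMA6), and genes of 1 role lie at very different levels while the groups of 1 gene lie close together. PSMD5 is an exception, with libraries spread from 31.8 to 79.8 TPM.

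Among the 5 assembly factors of the core, PSMG1 showed the largest change of any member. PSMG1 pairs with PSMG2 in a chaperone that guides alpha ring assembly (ENSG00000183527.11, chromosome 21, 39174769 to 39183851, minus strand). It stood at 46.9, 39.9 and 43.9 CPM in wild type and at 30.3, 29 and 33.0 in knockout. Every knockout library was well below the lowest wild-type library, wild-type replicate 2 (log2 fold change -0.50, SE 0.09, edgeR adjusted p = 0.0128, or 1.41-fold lower). The call held in 17 of 19 alternatives and was lost without wild-type replicate 1 (edgeR adjusted p = 0.066) or 3 (0.0569), where the log2 fold change was -0.45 and -0.50. Between 27 and 35% of its TPM was on protein-coding transcripts. Reads of the coding transcript PSMG1-202 were 446.7, 390.6 and 369.5 in wild type and 282.4, 284.0 and 238.7 in knockout. Those of the retained-intron transcript PSMG1-205 were 445.1, 313.9 and 359.5 against 260.4, 241.5 and 330.5, and those of the other coding transcript, PSMG1-201, were 108.6, 120.9 and 148.0 against 76.6, 65.6 and 126.6. The groups were apart for PSMG1-202 and overlapped for the other transcripts named here. PSMG2 had 60.8, 61.8 and 65.2 CPM against 52.7, 57.9 and 59.1, lower in every knockout library but not called (-0.15, edgeR adjusted p = 0.177).

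The second chaperone pair and the maturation factor gave no call. PSMG4 was lower on average, at 21.0, 18.2 and 21.7 CPM against 15.8, 12.3 and 19.1, but knockout replicate 3 lay above wild-type replicate 2 (-0.37, SE 0.16, edgeR adjusted p = 0.151). Without that knockout library the log2 fold change was -0.54 and the edgeR adjusted p 0.0413. Its partner PSMG3 differed by 0.14 (edgeR adjusted p = 0.515). POMP, which aids beta ring formation and is degraded when the core is complete, had 61.0, 66.8 and 71.4 CPM in wild type and 65.8, 63.2 and 73.1 in knockout, so the groups overlapped (0.02, 95% interval -0.18 to 0.23, edgeR adjusted p = 0.886).

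In the base of the regulatory particle 1 of 6 ATPases was lower, none was higher and the median was -0.13. PSMC3 (ENSG00000165916.8, chromosome 11, 47418769 to 47426473, minus strand) stood at 100.1, 102.9 and 102.8 CPM in wild type and 76.7, 82.5 and 85.1 in knockout. Its wild-type values were within 3 CPM of each other and all knockout values were lower (log2 fold change -0.32, SE 0.06, edgeR adjusted p = 0.016). As with PSMG1, the call held in 17 of 19 alternatives and failed without wild-type replicate 1 (edgeR adjusted p = 0.0705) or 3 (0.0725). PSMC1, the ATPase with the highest TPM (126.8), and PSMC2 were lower in every knockout library without a call (-0.15 and -0.16, edgeR adjusted p = 0.101 and 0.137). PSMC1 had 117.1, 110.4 and 116.8 CPM against 103.7, 99.9 and 106.0, shares 4671 exon bases with NRDE2 on the opposite strand, and its pseudogenes held reads equal to 6.105% of its own. PSMC4 was the only ATPase higher in every knockout library (0.14, edgeR adjusted p = 0.124). PSMC5 and PSMC6 overlapped, at -0.10 and -0.02.

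The scaffold and ubiquitin receptors of the base held the largest positive differences among members. PSMD1, a scaffold (ENSG00000173692.12, chromosome 2, 231056864 to 231172827, plus strand), stood at 72.4, 81.0 and 75.0 CPM in wild type and at 89.4, 89.6 and 89.5 in knockout. Knockout libraries were nearly equal and all above wild type (log2 fold change 0.23, SE 0.06, edgeR adjusted p = 0.0409). The call was lost without wild-type replicate 1 or 3 (edgeR adjusted p = 0.165 and 0.149) or any knockout library (0.097, 0.0854 and 0.0644 without replicates 1, 2 and 3). It was also lost with upper-quartile factors (edgeR adjusted p = 0.0521), without the filter (0.067), with the effective length offset (0.25) and with protein-coding transcripts alone (0.071). The direction of PSMD1 turned (-0.08, edgeR adjusted p = 0.56) when 2 transcripts without a gene were added because their lengths equal those of its annotated transcripts. Their reads, 2843.0, 3274.1 and 3184.2 for the wild-type and 2404.8, 1766.7 and 3011.3 for the knockout libraries, compare with 2068 to 2692 for the gene itself, and whether they belong to PSMD1 was not tested. PSMD2, the other scaffold, had 156.6, 177.4 and 159.0 CPM against 183.6, 217.4 and 196.8. It had the highest fold change of any member and no overlap, but varied more and missed the threshold (0.28, SE 0.09, edgeR adjusted p = 0.057). DESeq2 called it (0.27, adjusted p = 0.0228), as did edgeR without wild-type replicate 2 (0.34, adjusted p = 0.0486). The receptor PSMD4, highest of this set in TPM (152.2), had 94.9, 93.9 and 96.2 CPM against 90.0, 87.7 and 94.0, and overlapped by a small margin (-0.07, edgeR adjusted p = 0.411). The receptor ADRM1 differed by 0.01 with an interval of -0.13 to 0.14.

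In the lid 1 of 8 genes was higher and 1 lower. PSMD14, the metalloprotease that cuts ubiquitin chains from substrates (ENSG00000115233.11, chromosome 2, 161308038 to 161411717, plus strand), had 93.6, 88.2 and 93.9 CPM in wild type and 76.6, 81.0 and 68.3 in knockout. All knockout values were lower, with replicate 3 the lowest (-0.29, SE 0.08, edgeR adjusted p = 0.0415). Leaving out wild-type replicate 1, 2 or 3 (edgeR adjusted p = 0.145, 0.0561 and 0.141) or knockout replicate 1 (0.0917) ended the call, as did library totals alone (-0.24, 0.0822), no filter (0.0526), the effective length offset (0.0829) and transcripts added by length (0.0877). PSMD11, a lid subunit that contacts the core (ENSG00000108671.10, chromosome 17, 32444261 to 32483318, plus strand), had 84.9, 88.6 and 85.3 CPM against 95.7, 99.0 and 105.0. Every knockout library was above every wild-type library (0.21, SE 0.06, edgeR adjusted p = 0.0479), yet the call was lost without any single library. Those edgeR adjusted p-values were 0.177, 0.067 and 0.166 without wild-type replicates 1, 2 and 3 and 0.0707, 0.0886 and 0.0864 without knockout replicates 1, 2 and 3. It was also lost with RLE or upper-quartile factors (edgeR adjusted p = 0.0525 and 0.0776), without the filter (0.0839), with the effective length offset (0.14, 0.28), with transcripts added by length (0.051) and in limma-voom (0.0511). PSMD8, the lid gene with the highest TPM (147.8), had 175.8, 172.5 and 176.0 CPM against 157.1, 158.9 and 166.2, all knockout values lower, without a call (-0.12, edgeR adjusted p = 0.151). PSMD3 was higher in every knockout library (0.14) and PSMD6 and PSMD12 lower in every one (-0.12 and -0.08), none of them called.

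**Figure D4:**
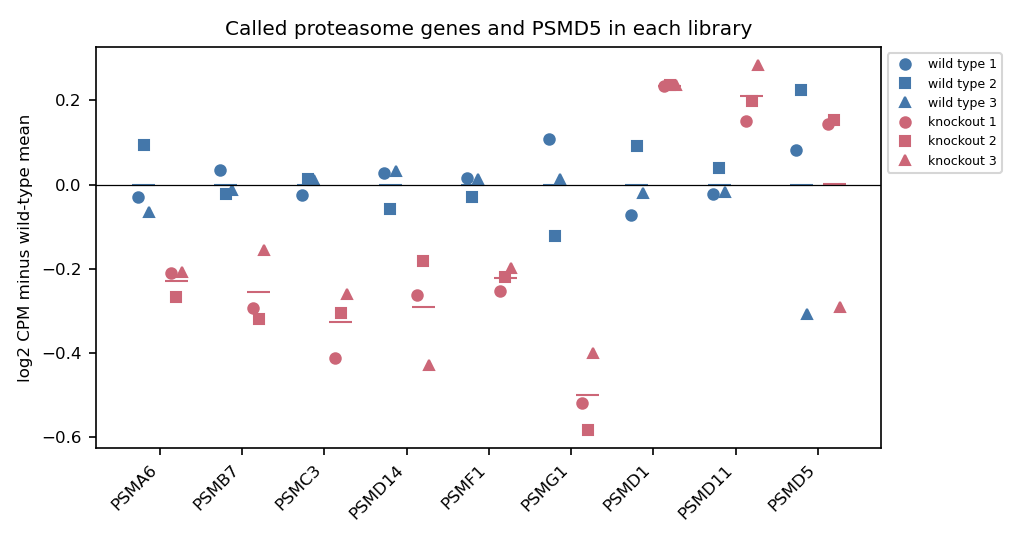
Log2 CPM of the 8 called members and PSMD5 in each library, relative to the wild-type mean of the gene (blue, wild type; red, ATF3 knockout; shapes give the replicate number; short lines are group means). The groups are apart in the 8 called genes, whereas PSMD5 is low in replicate 3 of both groups.

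The 3 chaperones of the regulatory particle gave no call. PSMD5 showed a pattern of its own: it stood at 81.9, 90.5 and 62.5 CPM in wild type and 85.6, 86.1 and 63.3 in knockout, low in replicate 3 of both groups (95% interval of the log2 fold change -0.40 to 0.40, SE 0.17, edgeR adjusted p = 0.998). Reads of its main coding transcript PSMD5-201 followed, with 1917.7, 2079.6 and 1428.9 against 1911.0, 2010.4 and 1548.8. Its TPM did not follow, at 38.1, 44.2 and 79.8 against 52.3, 68.1 and 31.8, and 38.5% of it came from transcripts under 500 bases, so the level per length of PSMD5 is not used further. PSMD10 was lower in every knockout library (-0.12, edgeR adjusted p = 0.237) and PSMD9 overlapped (-0.15, edgeR adjusted p = 0.241).

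Of the activators and the inhibitor, only the inhibitor passed the test. PSMF1, which binds the core and restrains it in vitro (ENSG00000125818.17, chromosome 20, 1113263 to 1189415, plus strand), had 88.4, 85.7 and 88.3 CPM in wild type and 73.4, 75.2 and 76.3 in knockout. Spread within each group was small and the groups were well apart (-0.22, SE 0.05, edgeR adjusted p = 0.0312). The call was lost without wild-type replicate 1 or 3 (edgeR adjusted p = 0.128 and 0.122) or knockout replicate 1 or 2 (0.0882 and 0.0653), and also with library totals alone (0.0649), without the filter (0.0567) and with the effective length offset (0.103). PSME1 and PSME2 form the interferon-inducible cap that opens the core without ATP. PSME1, the most abundant of the set (276.7 TPM), had 169.6, 166.6 and 165.9 CPM against 155.9, 146.4 and 168.2 (-0.09, edgeR adjusted p = 0.35), and PSME2 had 99.5, 113.3 and 102.6 against 122.6, 108.2 and 135.2 (0.21, edgeR adjusted p = 0.153). Both overlapped, the first leaning lower and the second higher. The nuclear cap PSME3 differed by 0.00 (interval -0.13 to 0.14), and PSME4, a large single-chain activator, was higher in every knockout library without a call (95.1, 93.7 and 93.7 CPM against 105.7, 107.3 and 101.9, 0.16, edgeR adjusted p = 0.0786).

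The called members were counted by promoter motif, beside the 21.7% called over all genes. Among the 16 tested genes with TGACNNNGC, PSMD1 was higher and PSMG1 lower, with a median of -0.04, and among the 27 tested genes whose promoter lacked it 1 was higher and 4 lower, with a median of -0.08. None of the 7 genes with paired GAAA letters was called, and their fold changes ran from -0.37 (PSMG4) to 0.21 (PSME2). Of the 21 tested genes with CCAAT none was higher and PSMC3, PSMD14 and PSMG1 were lower (median -0.10), and of the 22 without it 2 were higher and 2 lower (median -0.01). PSMF1 was the gene with TGATGNAA. These are descriptions, with no test of a difference between the sets.

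Genes that act with the proteasome were examined in 4 lists, with 13 calls in 45 genes (28.9%, against 21.7% of all genes tested). Of 16 proteasome-associated factors, which deliver substrates, edit ubiquitin chains or help import and storage, 2 were higher and 5 lower, with a median of -0.21. UBQLN2, a shuttle that carries ubiquitinated proteins to the proteasome, had 68.1, 81.9 and 69.5 CPM in wild type and 116.4, 102.8 and 132.5 in knockout. All knockout values were higher (0.68, SE 0.11, edgeR adjusted p = 0.012), and the call was lost without wild-type replicate 1 (edgeR adjusted p = 0.0635) or 3 (0.0565). The related shuttle UBQLN4 was higher (0.26, edgeR adjusted p = 0.0231) and UBQLN1 lower (-0.22, edgeR adjusted p = 0.0406), so paralogs with the same known task went in opposite directions. The ubiquitin ligase UBE3A had 142.7, 132.1 and 142.8 CPM against 117.3, 103.0 and 106.0 and was lower (-0.36, edgeR adjusted p = 0.0183). USP14 and UCHL5, the deubiquitinases that bind the regulatory particle, were both lower (-0.30 and -0.36, edgeR adjusted p = 0.024 and 0.0235). For UBE3A no call remained without wild-type replicate 1 or 3 (edgeR adjusted p = 0.0873 and 0.0791). UBQLN4 did not pass without wild-type replicate 1 or 3 (edgeR adjusted p = 0.112 and 0.0995) or knockout replicate 1 (0.0641), nor UBQLN1 without these libraries (0.162, 0.145 and 0.0876) or knockout replicate 2 (0.0934). UCHL5 did not pass without wild-type replicate 1 or 3 (edgeR adjusted p = 0.0822 and 0.0928), nor USP14 without these (0.108 and 0.0967) or knockout replicate 1 or 2 (0.0541 and 0.0561). With the trend on GC content removed, edgeR did not call UBE3A (-0.22, adjusted p = 0.096), USP14 (-0.18, 0.185), UCHL5 (-0.20, 0.0546), UBQLN1 (-0.17, 0.0838) or UBQLN4 (0.18, 0.0632). With the effective length offset USP14 (-0.22, edgeR adjusted p = 0.083) and UBQLN1 (-0.14, 0.36) were not called, and UBQLN1 was not called with library totals alone (0.0791) or without the filter (0.0695). SEM1, a small lid subunit that the naming rule does not reach, differed by 0.05 (edgeR adjusted p = 0.701).

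NFE2L1, the regulator of proteasome genes named above, was lower in the knockout libraries. Its level was 189.9, 160.4 and 190.5 CPM in wild type and 116.6, 115.3 and 126.7 in knockout (ENSG00000082641.15, chromosome 17, 48048329 to 48061487, plus strand). The groups were far apart (-0.59, SE 0.09, edgeR adjusted p = 0.00936, or 1.51-fold lower), and the call was lost only without wild-type replicate 1 (edgeR adjusted p = 0.0546) among 17 alternatives. Of the 11 genes in its list, 2 were higher, 1 lower and the median was 0.08. SYVN1, a ligase of the endoplasmic reticulum that keeps NFE2L1 protein low, had 35.7, 35.8 and 38.4 CPM against 45.5, 47.2 and 46.5 and was higher (0.34, edgeR adjusted p = 0.0149). VCP, the ATPase that draws NFE2L1 out of the membrane, had 335.1, 379.9 and 346.4 CPM against 416.9, 418.7 and 440.3 and was higher (0.27, edgeR adjusted p = 0.0329). SYVN1 did not pass without wild-type replicate 1 (edgeR adjusted p = 0.0809) or 3 (0.0521), and with the effective length offset its difference was 0.19 (edgeR adjusted p = 0.16), and 0.21 (0.0602) with the GC trend removed. VCP did not pass without any library other than wild-type replicate 2, with edgeR adjusted p at 0.141 and 0.129 without wild-type replicates 1 and 3 and at 0.0736, 0.0576 and 0.0636 without knockout replicates 1, 2 and 3, and at 0.0504 with the effective length offset. NGLY1 and DDI2, which process NFE2L1 into its active form, gave 0.11 and 0.17 without a call (edgeR adjusted p = 0.19 and 0.188), and NFE2L2 gave -0.23 (edgeR adjusted p = 0.0778).

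**Figure D5:**
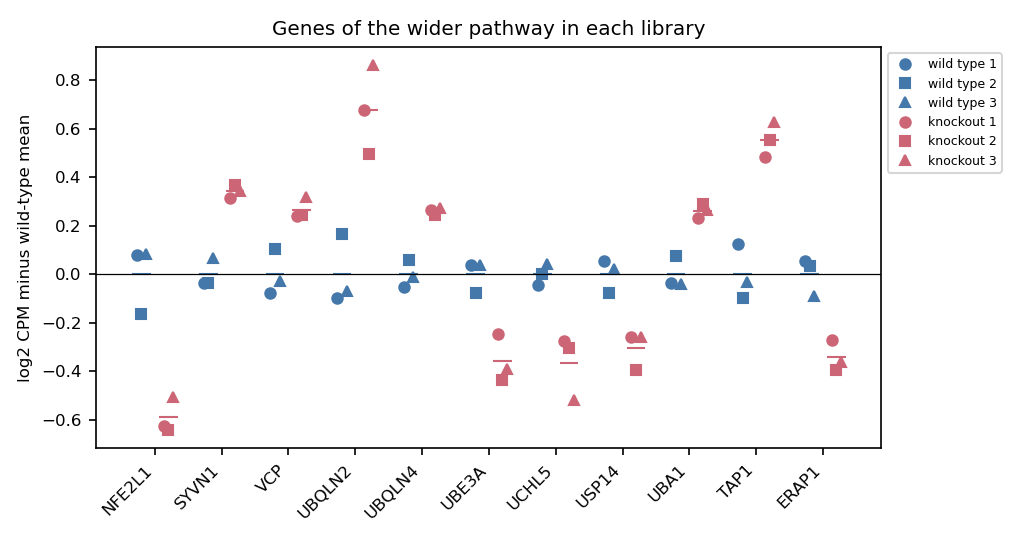
Log2 CPM of 11 of the 13 called genes of the wider pathway in each library, relative to the wild-type mean of the gene (blue, wild type; red, ATF3 knockout; shapes give the replicate number; short lines are group means). NFE2L1 is lowest, with a log2 fold change of -0.59, and UBQLN2 is highest, at 0.68.

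Ubiquitin genes and activating enzymes gave 1 call in 6. UBA1, the main ubiquitin-activating enzyme, had 216.2, 233.6 and 215.4 CPM in wild type and 260.2, 270.8 and 266.3 in knockout, all higher (0.26, edgeR adjusted p = 0.0241). The call was lost without wild-type replicate 1 or 3 (edgeR adjusted p = 0.116 and 0.11) or knockout replicate 1 or 2 (0.0564 and 0.0543), or with the GC trend removed (0.17, 0.0842). Of 12 genes of antigen processing, which takes up the peptides that the immunoproteasome makes, 1 was higher and 1 lower, with a median of -0.14. TAP1, a subunit of the peptide transporter and neighbour of PSMB9 in the MHC region, had 26.1, 22.4 and 23.4 CPM against 33.4, 35.1 and 36.9 and was higher (0.55, SE 0.08, edgeR adjusted p = 0.0103). The call did not hold without wild-type replicate 3 (edgeR adjusted p = 0.0511) or with primary transcripts alone (0.44, edgeR adjusted p = 0.0622). ERAP1, which trims peptides in the endoplasmic reticulum, had 54.5, 53.6 and 49.3 CPM against 43.5, 39.9 and 40.8 and was lower (-0.34, edgeR adjusted p = 0.0195). The call did not hold without wild-type replicate 1 (edgeR adjusted p = 0.0935) or 3 (0.053) or knockout replicate 2 (0.0545), and with the effective length offset the difference was -0.41 (edgeR adjusted p = 0.258). The regulators IRF1, at 0.12, and NLRC5, at 0.05, were not called (edgeR adjusted p = 0.325 and 0.833), as for PSMB8, PSMB9 and PSMB10.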

How the data were processed

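The authors quantified transcripts with Salmon, and the deposited estimated counts, TPM, lengths and effective lengths of 177456 transcripts in 6 libraries were used. Salmon 1.6.0, FastQC 0.11.9 and hg38 are named per the submitters' processing notes. The kit was a stranded one, per the labels' protocols. The sources used here do not state bias options, strand settings or the release of the transcriptome. Reads of genes overlapping on both strands may thus be shared.

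Of the deposited estimated counts above 0, 92.66% were not whole (tolerance 0.001). They were summed per gene and rounded. The deposited TPM values were summed per gene, used as values without TMM scaling and not tested. No transcript had an effective length that differed between libraries. The effective length offset used the mean over the transcripts of a gene, weighted by their TPM in the library. It thus varied only with the estimated shares of the transcripts. Transcripts were joined by identifier to GENCODE 29: 167027 through the primary assembly and 7494 more, holding 2.705 to 2.989% of the reads, through its table of transcript symbols. Another 2935 transcripts had no gene (0.779 to 0.88% of the reads) and stayed out of library sizes and tests.

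The test was edgeR 4.0.16 (quasi-likelihood, TMM factors of 0.9756 to 1.0337, default filterByExpr with a minimum of 10 reads, R 4.3.3) on the group alone, with Benjamini-Hochberg adjustment at 0.05 over 13274 genes and 4 residual degrees of freedom. The biological coefficient of variation was 15.92%. CPM use TMM-adjusted library sizes, and fold changes give knockout relative to wild type. DESeq2 1.42.0 and limma 3.58.1 (voom) were alternatives. The steps were tested on simulated counts. Genes named with values in every library are, per role or list, up to 3 called genes with the smallest p, the member with the highest TPM, and PSMB8, PSMB9, PSMB10, PSME1, PSME2 and POMP. PSMD2, PSMD5, PSMB3, PSMB5, PSMB6, PSMG2, PSMG4 and PSME4 were added after their values were seen. Some genes of the lists are counted but not reported here by name. Members, roles, lists and motifs were chosen with earlier results of these data known. Whether replicate numbers pair the libraries is not stated, and the main test did not use them.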

Additional observations from a re-analysis of the deposited data

How the results depend on the processing

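Counts of members higher and lower (2 and 6) became 1 and 6 with RLE factors, 0 and 6 with upper-quartile factors, 4 and 2 with library totals alone, 0 and 3 without the filter, 1 and 2 with the effective length offset, 1 and 6 with protein-coding transcripts or with limma-voom, and 0 and 4 when transcripts without a gene were added by length. With a library left out they ranged from 0 to 2 and from 0 to 7. Without wild-type replicate 1 or 3 edgeR called no member (PSMG1 had adjusted p-values of 0.066 and 0.0569), while 8 members had an unadjusted p under 0.05 in each fit. DESeq2 called 3 and 7 members on all libraries. All genes (1554 and 1321) ranged from 173 to 1463 higher and from 115 to 1477 lower without a library, and were 749 and 688 with the offset. With library totals alone 65.2% of all calls were higher, against 54.1%. The other pathway genes (6 and 7) ranged from 0 to 7 and from 0 to 12 without a library and had 4 lower with the offset. The median of the members (-0.07) was -0.02 with library totals, -0.03 with the offset, -0.04 with primary transcripts alone, and -0.09 to -0.05 without a library. ATF3 ranged from -2.03 to -1.58 without a library.

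With the replicate block, which uses the numbers in the labels, 1 member was higher and 2 lower. PSMD1 and PSMD11 both lost their calls there, so the higher member was not called in the main test. PSMA6, PSMB7, PSMD14 and PSMF1 lost their calls as well, while PSMC3 and PSMG1 kept theirs. Whether the numbers pair the libraries is not stated in the sources used here. Correlations of deviations from the group mean were -0.069, 0.144 and 0.27 for numbers 1, 2 and 3. Not every library correlated best with its own number. Deviations from a mean of 3 libraries depend on each other, so these values cannot decide it.

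Ratios of PSMB8 to PSMB5 were 1.17 (wild type) and 0.997 (knockout) with transcripts added by length and 0.0554 and 0.0424 with primary transcripts alone, those of PSMB9 to PSMB6 0.408 and 0.389, and 0.00514 and 0.00911. That of PSMB10 to PSMB7 was 0.446 and 0.528 with protein-coding transcripts. Signs turned only in genes that were not called, apart from PSMD1, which was -0.08 with transcripts added by length. PSMB6 turned to 0.03 with library totals, and to 0.01 to 0.03 without a library. PSMB9 was 0.79 with primary transcripts alone. PSMB10 was -0.01 with upper-quartile factors, -0.13 with the GC trend removed and -0.08 to 0.11, -0.0009 among these values, without a library. PSMD4 was 0.03 with the offset. PSMD5 was 0.05 with library totals, 0.0021 with the block, 0.0018 with protein-coding transcripts, 0.0027 with transcripts added by length, 0.01 with the GC trend removed and -0.14 to 0.12 without a library. POMP was -0.05 to 0.08 without a library, with -0.04 where wild-type replicate 1 was left out. Over 40 single-gene results, 583 alternative values kept their direction and side of the threshold, 118 lost a call, 8 gained one and 22 turned in sign. The causes were not tested. Primary transcripts alone and the GC correction were chosen after seeing the data.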
